A study of Mus musculus with 23 samples.

Results

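The aminoacyl-tRNA synthetases were followed in the livers of female B6C3F1 mice that had been dosed with furan. Members were set by a rule on symbols, chosen with earlier results of these data known. The rule took 1 capital letter followed by ars, ars1 or ars2. The glutamyl-prolyl enzyme Eprs, both subunits of the phenylalanyl enzyme (Farsa and Farsb) and the threonyl paralog Tarsl2 were added. This gave 38 genes, 21 of the cytosolic set and 17 of the mitochondrial set (symbols ending in ars2). Of these, 37 could be tested, among 19899 genes tested in all. Nars2, for asparagine in mitochondria, was the gene that could not: its probe was well above background on 2 of 5 arrays at 8 mg/kg and on 0 or 1 array in each other group. Of the 19899 genes, 12928 had a gene symbol. The others were array entries without a symbol, each counted as a gene. Every share of all genes tested includes them, whereas the members all have symbols.

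Mice bought at 5 to 6 weeks of age and acclimatized for at least 7 days received corn oil alone (5 animals) or furan dissolved in corn oil at 1 mg/kg body weight (4 animals), 2 mg/kg (5), 4 mg/kg (4) or 8 mg/kg (5). Gavage went on for 21 days, and livers were taken 4 h after the last dose. Furan is a small volatile ring compound that the liver enzyme Cyp2e1 turns into a reactive dialdehyde. Each of the 23 animals was hybridised on its own 2-colour Agilent array, with liver RNA in Cy5 and a universal mouse reference RNA in Cy3, so that each value is the log2 ratio of liver to the common reference and the levels of different genes cannot be set against each other. The series text describes the animals as biological replicates and counts more samples than the 23 analysed here.

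Aminoacyl-tRNA synthetases join each amino acid to its transfer RNA, the step that lets a ribosome read the genetic code. Mammals have a cytosolic set and a nuclear-encoded mitochondrial set, with Gars and Kars serving both compartments, and several cytosolic enzymes sit in a large multi-synthetase complex held together by the scaffold proteins Aimp1, Aimp2 and Eef1e1. Genes for many cytosolic synthetases are known targets of Atf4, the transcription factor of the amino acid and integrated stress responses, which binds C/EBP-ATF composite elements (also called amino acid response elements).

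The known target element gives a reason to look at the promoters first. RefSeq windows on GRCm38.p6, from 250 bases before to 50 after the annotated start, were at hand for 28 of the 38 genes. The core TGATGNAA, searched on both strands (TTNCATCA on the reverse), lay in the windows of 5 of the 28 genes (17.9%), against 4.51% of 27025 genes with a window. These were Gars, Iars, Tars, Aars and Yars. The E-box CACGTG, its own reverse complement, lay in the windows of 5 of 28 (Aars, Ears2, Farsb, Iars and Tars), against 8.09% of all genes. No match of either motif overlapped a match of the other. The sequences below run from position -120 to position 20 around the start, 5′ to 3′ on the gene's strand, with TGATGNAA or its reverse complement in capitals. Gars, Iars and Tars are shown because they carry the core and passed the expression test at 8 mg/kg, Yars2 because it passed without the core, and Aars and Yars because they carry the core and did not pass.
Gars: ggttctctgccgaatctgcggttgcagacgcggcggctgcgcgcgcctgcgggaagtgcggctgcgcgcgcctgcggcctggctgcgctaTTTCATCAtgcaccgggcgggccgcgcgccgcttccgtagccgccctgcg
Iars: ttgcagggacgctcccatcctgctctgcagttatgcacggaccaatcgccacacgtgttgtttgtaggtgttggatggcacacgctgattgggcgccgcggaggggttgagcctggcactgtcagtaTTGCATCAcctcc
Tars: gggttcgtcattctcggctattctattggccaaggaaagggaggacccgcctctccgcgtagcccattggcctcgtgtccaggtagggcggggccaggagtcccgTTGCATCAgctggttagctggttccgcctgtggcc
Aars: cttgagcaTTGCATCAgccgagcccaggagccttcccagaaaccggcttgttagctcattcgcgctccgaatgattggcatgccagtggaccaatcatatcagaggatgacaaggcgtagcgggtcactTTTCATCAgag
Yars: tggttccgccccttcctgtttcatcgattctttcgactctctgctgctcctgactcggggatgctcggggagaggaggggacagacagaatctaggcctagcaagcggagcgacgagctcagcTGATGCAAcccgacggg
Yars2: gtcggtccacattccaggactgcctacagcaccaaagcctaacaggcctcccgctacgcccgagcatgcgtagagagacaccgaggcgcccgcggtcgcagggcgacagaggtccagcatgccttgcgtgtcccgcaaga

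In Gars (chr6:55037881-55038020, plus strand) the core occupied positions -30 to -23 from the start, and in Tars (chr15:11399639-11399778, minus strand) positions -15 to -8. That of Iars (chr13:49682010-49682149, plus strand) lay just past the start, at 8 to 15. Aars (chr8:111033722-111033861, plus strand) had it at -112 to -105 and again at 10 to 17. For Yars (chr4:129189783-129189922, plus strand) it lay at 4 to 11 in the forward direction. The window of Yars2 (chr16:16302845-16302984, plus strand) held neither motif. These are matches of letters and were not tested as binding sites.

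At 8 mg/kg, 6 of the 37 synthetase genes passed the test (limma, adjusted p under 0.05 over all 19899 genes), which is 16.2%, where 8.01% of all genes passed. The cytosolic genes Tars (threonine), Cars (cysteine), Gars (glycine) and Iars (isoleucine) and the mitochondrial Yars2 (tyrosine) rose. The mitochondrial Pars2 (proline) fell. That made 5 of 37 higher (13.5%, against 4.25% of all genes) and 1 of 37 lower (2.7%, against 3.76%). All 6 changes were small, between 1.2-fold and 1.38-fold in size.

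**Figure D1:**
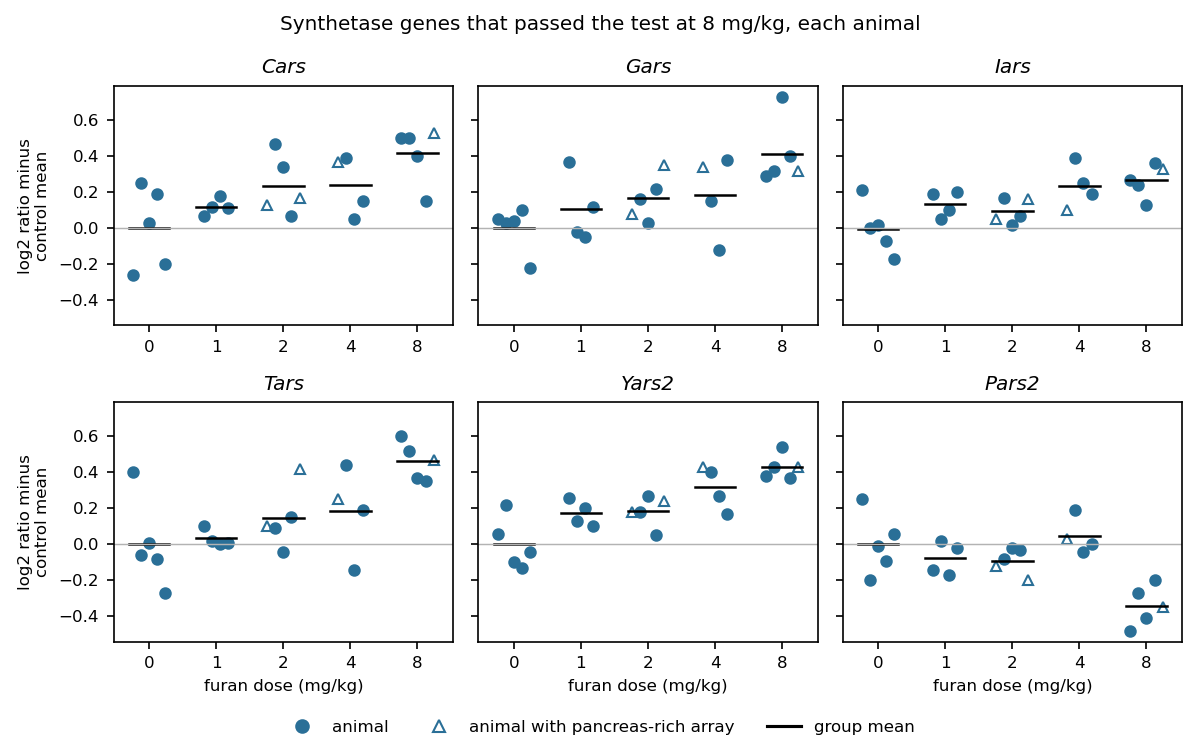
Log2 ratio of liver to reference RNA minus the control mean (vertical axis, log2 units) by furan dose in mg/kg (horizontal axis, 0 is corn oil) for the 6 synthetase genes that passed at 8 mg/kg. Points are animals, open triangles are the 4 animals whose arrays were rich in pancreatic transcripts, and bars are group means; at 8 mg/kg the 5 animals lie above all controls for Gars and Yars2, and the means of Cars, Iars and Tars are higher and that of Pars2 lower than in controls.

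Yars2, which charges the mitochondrial tyrosine tRNA, had the smallest adjusted p of the set. Its log2 ratio was 0.93, 0.98, 1.09, 0.93 and 0.99 in the 5 animals at 8 mg/kg, against 0.61, 0.77, 0.45, 0.42 and 0.51 in the 5 controls. Every animal at 8 mg/kg lay above every control. In between, the 1 mg/kg animals had 0.81, 0.68, 0.75 and 0.65, the 2 mg/kg animals 0.73, 0.73, 0.82, 0.60 and 0.79, and the 4 mg/kg animals 0.98, 0.95, 0.82 and 0.72. At the intermediate doses 1 of 4, 2 of 5 and 3 of 4 animals exceeded all controls, in order of dose. The mean was 0.98 ± 0.07 at 8 mg/kg and 0.55 ± 0.14 in controls (SD, n = 5 each), a difference of 0.43 ± 0.07 (SE; 1.35-fold, 95% interval 0.28 to 0.59, limma adjusted p = 0.00102).

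Gars makes glycyl-tRNA for both the cytosol and the mitochondrion. Its log2 ratio was -0.99, -0.96, -0.55, -0.88 and -0.96 at 8 mg/kg, against -1.23, -1.25, -1.24, -1.18 and -1.50 in controls. Here too every animal at 8 mg/kg lay above every control, which was so for 2 of the 37 genes (5.41%) and for 4.44% of all genes tested. Animals of the 1 mg/kg group had -0.91, -1.30, -1.33 and -1.16, those of the 2 mg/kg group -1.21, -1.12, -1.25, -1.06 and -0.93, and those of the 4 mg/kg group -0.95, -1.13, -1.40 and -0.90. They overlapped the controls in each of these 3 groups. The difference at 8 mg/kg was 0.41 ± 0.11 (SE; 1.33-fold, adjusted p = 0.0236 by limma). It was carried in part by 2 arrays: without the 8 mg/kg animal at -0.55 it was 0.33 with an adjusted p of 0.0697, and without the control at -1.50 it was 0.36 with an adjusted p of 0.0657.

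Tars, the cytosolic threonyl enzyme, showed the largest difference among the 6. Its log2 ratio was 0.45, 0.37, 0.22, 0.21 and 0.32 at 8 mg/kg, against 0.25, -0.20, -0.13, -0.22 and -0.41 in controls. One control reached into the range of the 8 mg/kg animals, 3 of which exceeded all controls. The 1 mg/kg group had -0.04, -0.12, -0.14 and -0.14, the 2 mg/kg group -0.05, -0.06, -0.18, 0.00 and 0.28, and the 4 mg/kg group 0.11, 0.29, -0.29 and 0.04. The 4 animals at 1 mg/kg lay inside the range of the controls, and 1 animal at 2 mg/kg and 1 at 4 mg/kg lay above it. The 8 mg/kg mean was 0.32 ± 0.10 and the control mean -0.14 ± 0.24 (SD, n = 5 each), which differed by 0.46 ± 0.11 (SE; 1.38-fold, limma adjusted p = 0.0164). This call was kept whichever single array was left out.

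Cars, the cytosolic cysteinyl enzyme, had log2 ratios of -0.51, -0.50, -0.61, -0.86 and -0.47 at 8 mg/kg, against -1.27, -0.76, -0.97, -0.82 and -1.21 in controls. Of the 8 mg/kg animals, 4 lay above all controls and 1 among them. Ratios were -0.94, -0.88, -0.83 and -0.90 in the 1 mg/kg animals, -0.88, -0.54, -0.66, -0.93 and -0.84 in the 2 mg/kg animals, and -0.63, -0.61, -0.96 and -0.86 in the 4 mg/kg animals. Group means climbed with dose, with 0, 2 and 2 animals above all controls at these 3 doses. At 8 mg/kg the difference was 0.42 ± 0.11 (SE; 1.33-fold, limma adjusted p = 0.0215). Its adjusted p passed 0.05 without control replicate 1 (0.0631), control replicate 5 (0.0589), 8 mg/kg replicate 2 (0.0521) or 8 mg/kg replicate 5 (0.0549), with differences of 0.35 to 0.39.

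Iars, the cytosolic isoleucyl enzyme and a member of the multi-synthetase complex, had log2 ratios of -1.07, -1.10, -1.21, -0.98 and -1.01 at 8 mg/kg, against -1.13, -1.33, -1.31, -1.40 and -1.50 in controls. All but 1 of the 8 mg/kg animals exceeded every control. The lower dose groups had -1.15, -1.29, -1.24 and -1.14 (1 mg/kg), -1.28, -1.17, -1.32, -1.26 and -1.18 (2 mg/kg), and -1.23, -0.95, -1.08 and -1.14 (4 mg/kg). None of the animals at 1 or 2 mg/kg and 2 of those at 4 mg/kg lay above all controls. The difference at 8 mg/kg, 0.26 ± 0.07 (SE; 1.2-fold, limma adjusted p = 0.0303), was the smallest of the 5 rises. It was also the least firm: the adjusted p lay between 0.051 and 0.0846 when any control other than replicate 1, or any 8 mg/kg animal other than replicate 3, was left out, with differences of 0.22 to 0.27.

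Pars2, which charges the mitochondrial proline tRNA, was the member that fell. Its log2 ratio was -1.03, -0.82, -0.96, -0.75 and -0.90 at 8 mg/kg, against -0.31, -0.75, -0.57, -0.64 and -0.50 in controls. Among the 8 mg/kg animals, 4 lay below all controls and the other equalled the lowest control to 2 decimals. Values were -0.69, -0.53, -0.72 and -0.58 in animals of the 1 mg/kg group, -0.68, -0.64, -0.58, -0.58 and -0.75 in the 2 mg/kg group, and -0.53, -0.37, -0.59 and -0.55 in the 4 mg/kg group. These 3 groups stayed within the control range, and the lower values were seen at the top dose. The mean was -0.89 ± 0.11 at 8 mg/kg and -0.55 ± 0.17 in controls (SD, n = 5 each), so that Pars2 fell by 0.34 ± 0.08 on the log2 scale (SE; 1.27-fold lower, limma adjusted p = 0.0112).

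The same 6 genes passed in the slope of the log2 ratio on dose over all 23 animals (16.2% of the members, where 10.4% of all genes passed). The slope is in log2 units per mg/kg and shares the control and 8 mg/kg animals with the comparison above. It was 0.057 ± 0.012 for Tars (SE; limma adjusted p = 0.00372), 0.049 ± 0.0085 for Yars2 (0.000555), 0.047 ± 0.012 for Gars (0.0109) and 0.046 ± 0.012 for Cars (0.0138). Iars had 0.030 ± 0.0084 (0.0222) and Pars2 -0.037 ± 0.010 (0.0233). The Iars slope missed the threshold without 8 mg/kg replicate 4 (0.028, adjusted p = 0.062) or 5 (0.029, 0.0541). That of Pars2 did so without 8 mg/kg replicate 1 (-0.031, 0.0807), 3 (-0.033, 0.0714) or 5 (-0.035, 0.0603).

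At the lower doses no synthetase gene passed by limma: 0 of 37 for 1 mg/kg (background 0%), 0 of 37 for 2 mg/kg (0.0101%) and 0 of 37 for 4 mg/kg (0.0804%). At an unadjusted p under 0.05 there was 1 member for 1 mg/kg (2.7%, background 3.52%), there were 3 for 2 mg/kg (8.11%, background 8.66%) and 4 for 4 mg/kg (10.8%, background 8.9%), shares close to the background. Yars2 was among them each time, higher by 0.17, 0.18 and 0.32 in order of dose. These comparisons share the same controls and estimate of spread, so its recurrence is not independent. Cars (0.23) and the leucyl enzyme Lars (0.37) joined it in the 2 mg/kg comparison. Cars (0.24), Iars (0.23) and the mitochondrial glutamyl enzyme Ears2 (0.25) did so in the 4 mg/kg comparison. Between 8 and 4 mg/kg directly, 0 of 37 passed by limma (background 0.206%). At an unadjusted p under 0.05 there were 3 (8.11%, background 8.43%): Tars (0.28) and Mars2 (0.74), higher at 8 mg/kg, and Pars2 (-0.38), lower at 8 mg/kg. Mars2 entered the test through the 8 mg/kg group alone. It was well above background on 5 of 5 arrays there and on 1 of 4 at 4 mg/kg, so its value carries no weight here.

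The arrays were run on 5 slides, 4 of which held both an 8 mg/kg animal and at least 1 control. Within these 4 slides the 8 mg/kg value minus the control value had the same sign throughout for each of the 6 genes: 0.34 to 0.55 for Tars, 0.32 to 0.57 for Yars2, 0.23 to 0.70 for Gars, 0.12 to 0.73 for Cars, 0.12 to 0.39 for Iars and -0.63 to -0.18 for Pars2. Each slide gave 1 treated animal and 1 or 2 controls. The 6 genes were picked by these same animals, so the signs are not separate support. For Gars and Yars2 the sign was fixed by the lack of overlap between the groups. With slide as a block all 6 passed at 8 mg/kg, with limma adjusted p from 0.000267 for Yars2 to 0.0398 for Iars, in a fit where 11.7% of all genes passed.

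Transcripts of exocrine pancreas, a tissue that lies against the liver, stood out on 4 arrays: 2 mg/kg replicates 1 and 5, 4 mg/kg replicate 1 and 8 mg/kg replicate 5. The mean change of the 6 pancreatic markers measured, of 15 listed, was 2.58 to 3.75 on the log2 scale on these arrays and -0.35 to 0.41 on the other 19. Without the 4 arrays Tars (0.46), Yars2 (0.43), Gars (0.44) and Pars2 (-0.34) passed at 8 mg/kg, with limma adjusted p of 0.0385, 0.00623, 0.0415 and 0.0371. Cars (0.39, adjusted p = 0.0693) and Iars (0.25, adjusted p = 0.082) did not, which left 10.8% of the members, where 6.23% of all genes passed. In the slope on dose, Cars (0.042, adjusted p = 0.0606), Iars (0.029, 0.0641) and Pars2 (-0.037, 0.0507) did not pass without these arrays. All 6 differences and slopes were about as large without them. Fewer animals entered that fit, and the cause of the lost calls was not tested. The 2 mg/kg replicate 4 array was rich in neutrophil markers (3.3, from 5 of 10 markers measured, against -0.14 to 0.24 in controls). Replicates 3 and 5 of that dose had 0.74 and 1.2.

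All 10 hepatocyte markers listed were measured, and none passed at 8 mg/kg. Their mean change from the control mean ranged from -0.47 to 0.81 in the 1 mg/kg animals, -0.50 to 0.97 in the 2 mg/kg animals, -0.28 to 0.13 in the 4 mg/kg animals and -0.35 to 0.66 in the 8 mg/kg animals, against -0.35 to 0.55 in controls. Kupffer cell markers (10 of 10 measured) ranged from -0.22 to 0.48 in 8 mg/kg animals, against -0.35 to 0.49 in controls, and stellate cell markers (8 of 8) -0.11 to 0.13, against -0.23 to 0.48. Neutrophil markers (5 of 10) ranged from -0.56 to 0.46 in 8 mg/kg animals, wider than the -0.14 to 0.24 of controls, and none passed. Endothelial markers (8 of 8) ranged from -0.51 to 0.16 in 8 mg/kg animals, against -0.16 to 0.36 in controls, and 1 of them passed as lower. The scores were -0.64 to 0.39 against -0.47 to 0.37 for cholangiocyte markers (3 of 6 measured), -0.45 to 0.11 against -0.23 to 0.19 for T and NK cell markers (5 of 7), -0.47 to 0.17 against -0.43 to 0.31 for B and plasma cell markers (4 of 6) and -0.35 to 0.30 against -0.42 to 0.25 for erythrocyte markers (3 of 5), each with 8 mg/kg before controls. No marker of these last 4 types passed. In bulk tissue, fewer cells of a type and less RNA per cell cannot be told apart, and the part of cell makeup in the synthetase values was not tested.

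**Figure D2:**
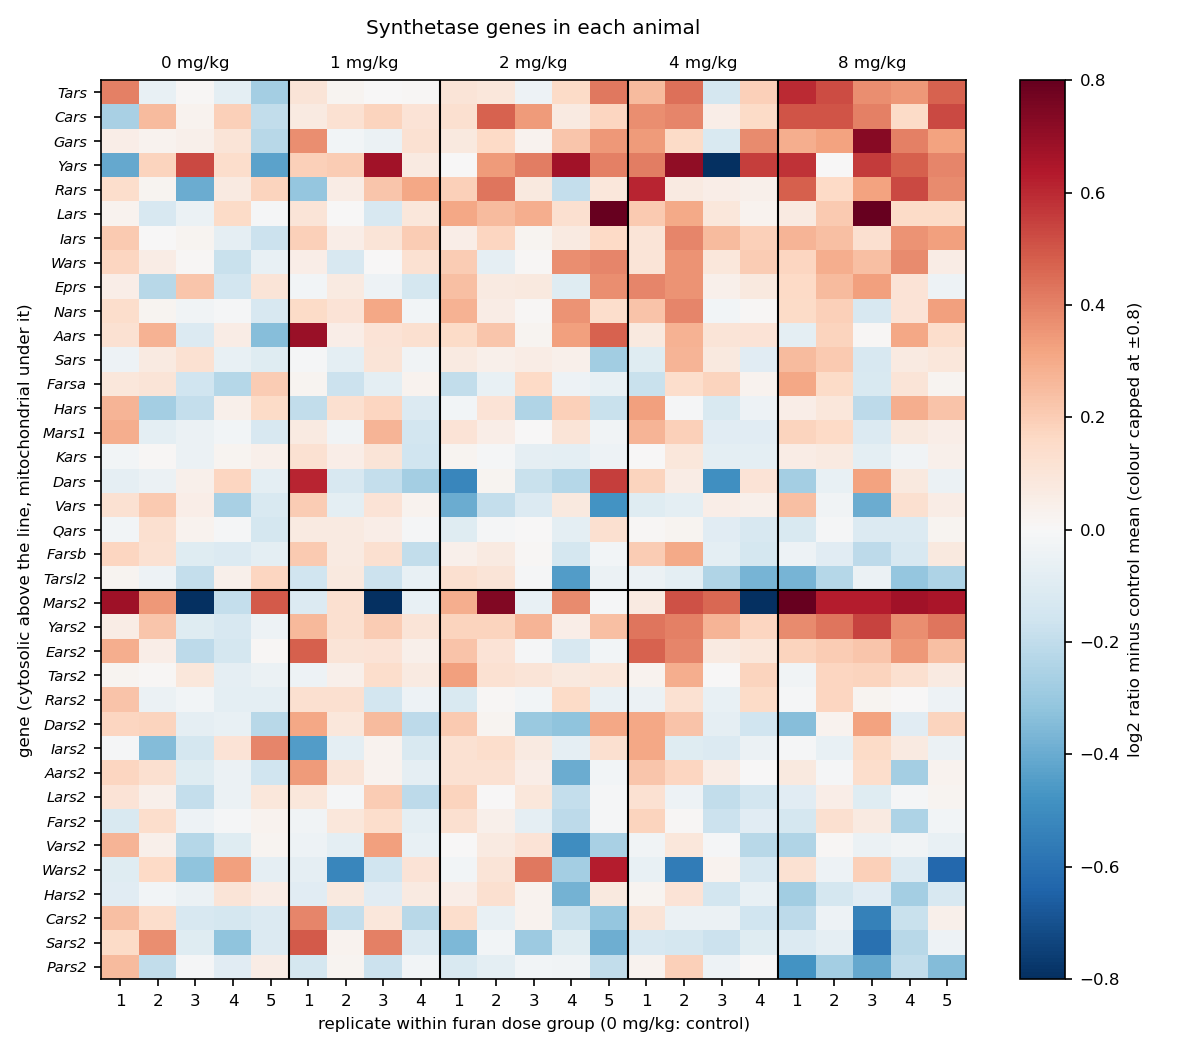
Log2 ratio minus the control mean (colour, limited to 0.8 in each direction) for the 37 tested synthetase genes (rows, cytosolic above the line and mitochondrial under it, each ordered by the 8 mg/kg difference) in each of the 23 animals (columns, by dose and replicate). The top rows of both blocks are red in most 8 mg/kg columns, which follows from that order, and most other rows of both blocks are paler. Mars2 and Yars2 are the top mitochondrial rows.

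Most cytosolic synthetase genes lay slightly above their controls at 8 mg/kg, with a median difference of 0.11 over the 21 genes, against -0.03 over all genes tested. Of the 21, 4 rose (19%, against 4.25% of all genes), none fell (against 3.76%) and the others did not pass. The arginyl enzyme Rars, a complex member, averaged -0.76 ± 0.14 at 8 mg/kg and -1.13 ± 0.23 in controls (SD, n = 5 each), a difference of 0.37 with a limma adjusted p of 0.127. For Rars the difference was 0.17 after normexp background correction of the median signals and 0.20 in the authors' deposited table. The tryptophanyl enzyme Wars, which interferon gamma is known to induce, averaged -0.32 ± 0.12 at 8 mg/kg and -0.55 ± 0.13 in controls, a difference of 0.23 (adjusted p = 0.165). A second Wars probe gave 0.24. Tarsl2, a paralog of Tars, had the lowest difference on the cytosolic side, at -0.24 (adjusted p = 0.167), with a mean of -0.21 ± 0.12 at 8 mg/kg and 0.04 ± 0.13 in controls.

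The remaining cytosolic genes ranged from -0.08 for Farsb to 0.40 for Yars. Yars is the cytosolic tyrosyl enzyme, the partner of Yars2. It was well above background on 5 of 5 arrays at 8 mg/kg and on 2 of 5 in controls, and its adjusted p was 0.459 with a standard error of 0.28. The Yars difference was 0.08 with normexp and 0.07 in the deposited table. Lars, the leucyl enzyme that also senses leucine for the growth regulator mTORC1, had 0.28 with a 95% interval of 0.00 to 0.57. The lysyl enzyme Kars was the steadiest member, with a residual SD of 0.0725 and a difference of 0.01 (95% interval -0.11 to 0.14). Its neighbour in steadiness, the glutaminyl Qars, had -0.06 (-0.19 to 0.07). For both genes the interval leaves out a rise of the size measured for Tars. Aars, whose window holds the TGATGNAA core at a pair of places, had 0.11 (-0.15 to 0.38), an interval wide enough to include the size measured for Iars.

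**Figure D3:**
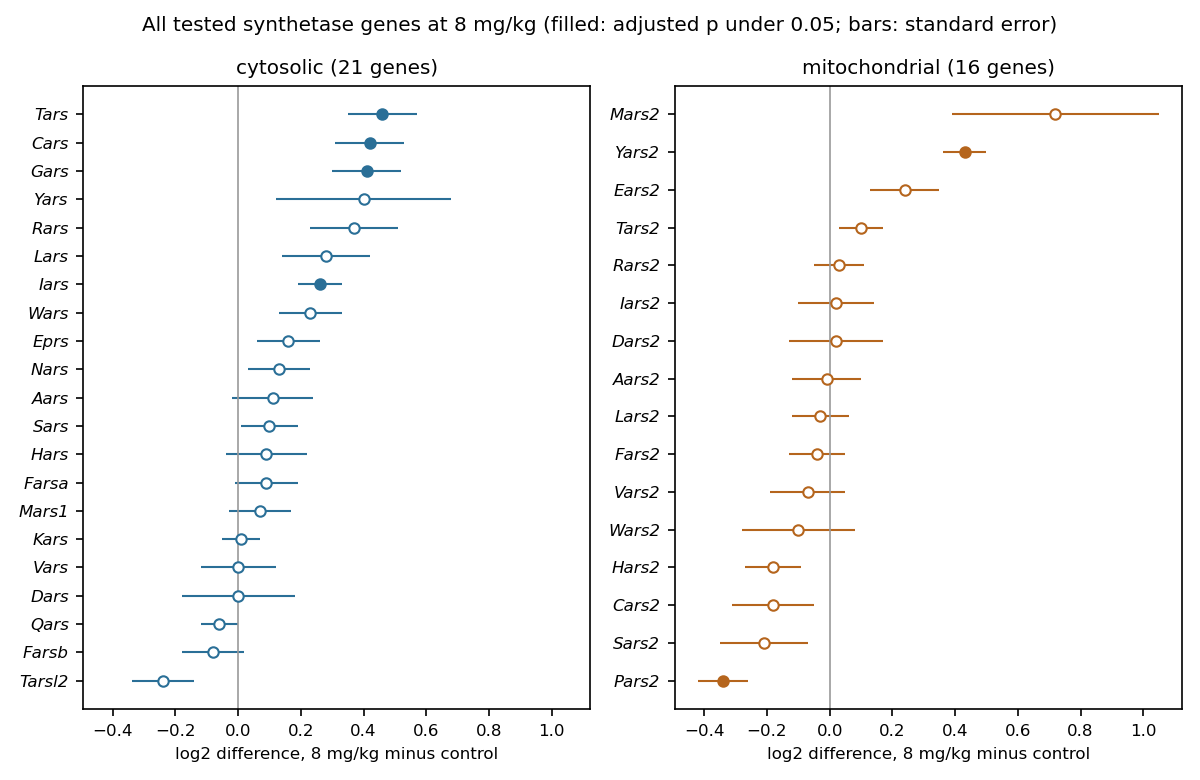
Difference of 8 mg/kg from controls in log2 units (horizontal axis) for each of the 37 tested synthetase genes (rows), cytosolic on the left and mitochondrial on the right. Points are the estimates, bars the standard error, and filled points mark an adjusted p under 0.05; 4 filled points lie right of 0 among the cytosolic genes, and 1 on each side of 0 among the mitochondrial genes.

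Genes rose both inside and outside the multi-synthetase complex. The 8 complex members (Dars, Eprs, Iars, Kars, Lars, Mars1, Qars and Rars) had a median difference of 0.12 at 8 mg/kg with 1 gene higher, Iars (12.5%, where 4.25% of all genes were higher). The 13 cytosolic genes outside the complex had a median of 0.11 with 3 higher (Cars, Gars and Tars; 23.1%). By enzyme class, which divides synthetases by the fold of their catalytic domain, the 18 class I genes had a median of 0.15 with 3 higher (16.7%) and none lower. The 18 class II genes had a median of 0.02 with 2 higher (11.1%) and 1 lower (5.56%, where 3.76% of all genes were lower). Eprs, which holds a domain of each class, is in neither count, and the differences between these groups were not tested.

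Mitochondrial synthetase genes were close to their controls as a set, with a median difference of -0.02 at 8 mg/kg over the 16 tested, of which 1 rose and 1 fell (6.25% each, against 4.25% and 3.76% of all genes). Whether the mitochondrial set differed from the cytosolic set was not tested. Ears2 averaged 1.08 ± 0.07 at 8 mg/kg and 0.84 ± 0.19 in controls (SD, n = 5 each), a difference of 0.24 with a limma adjusted p of 0.202. The mitochondrial histidyl enzyme Hars2 averaged 0.66 ± 0.09 at 8 mg/kg and 0.84 ± 0.08 in controls, a difference of -0.18 (adjusted p = 0.233). The methionyl enzyme Mars2 had a difference of 0.72 ± 0.33 (SE; adjusted p = 0.206), which was 0.08 with normexp, 0.13 in the deposited table and 0.39 without control replicate 3. It was dim: well above background on 5 of 5 arrays at 8 mg/kg, 1 of 5 in controls, and 1 or 2 in each of the other groups, so it entered the test through the 8 mg/kg group alone. The remaining mitochondrial genes lay between -0.21 (Sars2) and 0.10 (Tars2). A second probe of Vars2 gave 0.23 where the brighter one gave -0.07, and a second probe of Wars2 gave -0.27 where the brighter gave -0.10.

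Where a synthetase gene passed, its partner for the same amino acid in the other compartment did not. Tars differed by 0.46, against 0.10 for the mitochondrial Tars2 (adjusted p = 0.457). Cars differed by 0.42, against -0.18 for the mitochondrial Cars2 (adjusted p = 0.453). Iars differed by 0.26, against 0.02 for the mitochondrial Iars2 (adjusted p = 0.959). On the other side, Yars2 differed by 0.43 (0.40 to 0.47 over the other settings), against 0.40 for the cytosolic Yars (0.07 to 0.52 over the same settings). Pars2 differed by -0.34, against 0.16 for Eprs (adjusted p = 0.417), which makes prolyl-tRNA in the cytosol. Gars has no mitochondrial partner. The difference within a pair was not tested.

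**Figure D4:**
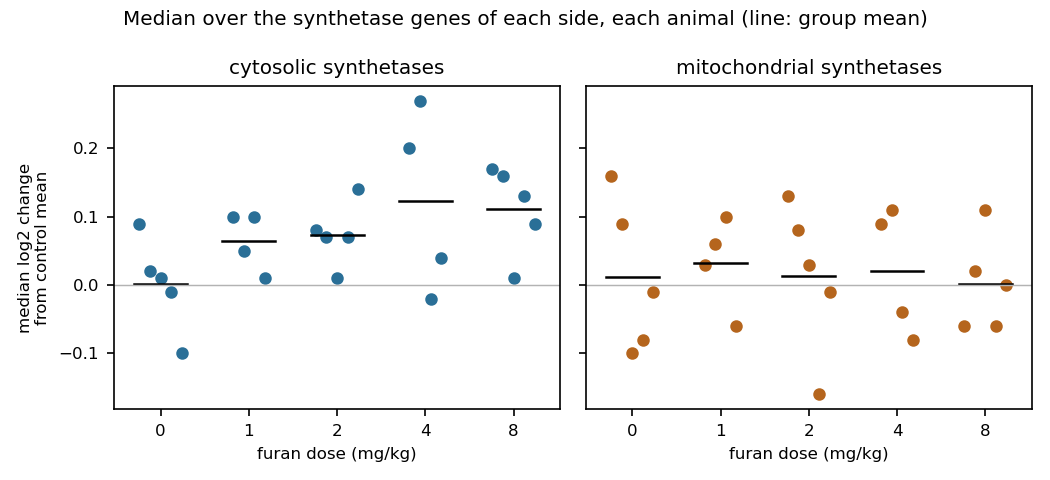
Median log2 change from the control mean over the 21 cytosolic (left) and 16 mitochondrial (right) synthetase genes in each animal (points) by furan dose in mg/kg (horizontal axis, 0 is corn oil), with the group mean as a line. The 8 mg/kg animals lie between 0.01 and 0.17 on the cytosolic side and between -0.06 and 0.11 on the mitochondrial side, both overlapping the controls.

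Taken animal by animal, the cytosolic median change from the control mean was 0.17, 0.16, 0.01, 0.13 and 0.09 at 8 mg/kg, against 0.09, 0.02, 0.01, -0.01 and -0.10 in controls. The groups overlapped, and 3 of the 8 mg/kg animals exceeded all controls. The highest single value, 0.27, was that of an animal at 4 mg/kg. On the mitochondrial side the medians were -0.06, 0.02, 0.11, -0.06 and 0.00 at 8 mg/kg, against 0.16, 0.09, -0.10, -0.08 and -0.01 in controls, with the 8 mg/kg animals inside the control range. Over doses the median of the cytosolic differences was 0.04, 0.09, 0.11 and 0.11 for 1, 2, 4 and 8 mg/kg. With 1 array left out in turn the 2 mg/kg median was 0.03 (without control replicate 3) to 0.14 (without control replicate 1), and the 4 mg/kg median was 0.06 without 4 mg/kg replicate 2. That of the mitochondrial differences was 0.02, -0.01, 0.00 and -0.02 for the same doses.

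Of the 3 scaffold genes of the multi-synthetase complex, 2 rose at 8 mg/kg (66.7% of a very short list, against 4.25% of all genes). Aimp2, which holds several of the enzymes in place, had log2 ratios of -1.36, -1.28, -1.26, -1.23 and -1.43 at 8 mg/kg, against -1.67, -1.62, -1.65, -1.71 and -1.44 in controls. The groups did not overlap, by a narrow margin, and the difference was 0.30 ± 0.08 (SE; 1.23-fold, limma adjusted p = 0.0194). Eef1e1, a scaffold that also takes part in the DNA damage response, had -0.58, -0.67, -0.30, -0.73 and -0.76 at 8 mg/kg, against -0.93, -1.13, -1.17, -1.14 and -0.71 in controls. One control lay within the 8 mg/kg range, and the difference was 0.41 ± 0.10 (SE; 1.33-fold, limma adjusted p = 0.0184). Aimp1 had 0.06 ± 0.07 (SE; adjusted p = 0.724), with values of -1.01, -0.91, -0.78, -0.87 and -1.02 at 8 mg/kg, against -1.11, -0.98, -0.87, -0.94 and -0.96 in controls. Adjusted p rose past the threshold for Aimp2 without control replicate 4 (0.051) or 8 mg/kg replicate 4 (0.0517), with a difference of 0.28 each time, and for Eef1e1 without control replicate 3 (0.37, 0.0518) or 8 mg/kg replicate 3 (0.33, 0.0543).

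Of 32 genes listed for the Atf4 amino acid response, 27 were tested, and at 8 mg/kg 5 rose (18.5%, against 4.25% of all genes), 2 fell (7.41%, against 3.76%) and 20 did not pass. Their median difference was 0.16. Atf4 itself had log2 ratios of 0.04, -0.07, -0.25, 0.12 and -0.11 at 8 mg/kg, against -0.72, -0.79, -0.65, -0.50 and -0.60 in controls. Every 8 mg/kg animal lay above every control, and the difference was 0.60 ± 0.10 (SE; 1.51-fold, limma adjusted p = 0.000861). At 4 mg/kg it was 0.17 ± 0.11. The stress-induced factor Atf3 rose by 1.98 ± 0.19, the leucine sensor Sesn2 by 0.84 ± 0.16, and the secreted hormones Fgf21 by 2.00 ± 0.44 and Gdf15 by 2.24 ± 0.23. Gdf15 was the gene of the list that also passed at 4 mg/kg, at 1.30 ± 0.24 (limma adjusted p = 0.0409).

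The pair that fell did so against the usual direction of the list. Chac1, which degrades glutathione, had a difference of -1.44 ± 0.29 at 8 mg/kg (limma adjusted p = 0.00361). Trib3, a pseudokinase that restrains Atf4, had -1.09 ± 0.24 (adjusted p = 0.00763) and is named here after its value was seen. Among those that did not pass were the asparagine synthetase gene Asns (0.55 ± 0.27, adjusted p = 0.254), the serine synthesis genes Psat1 (0.14 ± 0.24), Phgdh (-0.15 ± 0.19) and Psph (0.48 ± 0.17, adjusted p = 0.0988), and the amino acid transporter genes Slc7a5 (-0.07 ± 0.19), Slc3a2 (-0.12 ± 0.10) and Slc38a2 (0.23 ± 0.14). The list thus held calls in both directions, and most of its members stayed short of the threshold.

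**Figure D5:**
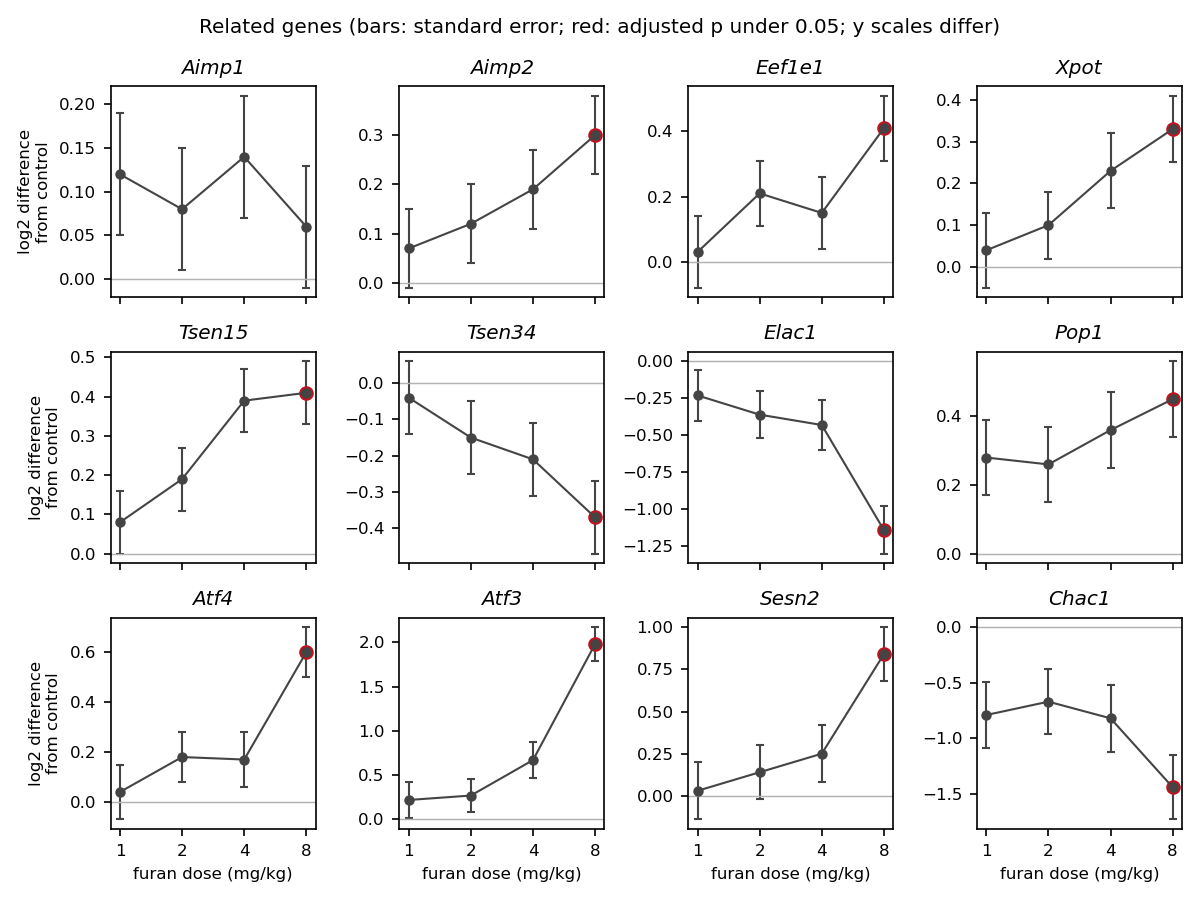
Difference from controls in log2 units (vertical axis, scales differ) with its standard error by furan dose in mg/kg (horizontal axis, spaced by doubling) for the complex scaffolds, tRNA processing genes and Atf4 list genes. Red points at 8 mg/kg have an adjusted p under 0.05. Aimp1 is the 1 gene of the 12 drawn without a red point, and the red points of Elac1, Tsen34 and Chac1 lie under 0.

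Genes that make and move tRNAs changed in both directions. Of 24 listed, 23 were tested, and at 8 mg/kg 3 rose (13%, against 4.25% of all genes), 2 fell (8.7%, against 3.76%) and 18 did not pass, with a median difference of 0.09. Elac1, a tRNA 3′ end nuclease, changed most: its log2 ratio was 0.18, -0.17, -0.10, -0.37 and -0.36 at 8 mg/kg, against 1.36, 0.77, 0.78, 1.09 and 0.90 in controls. The groups were far apart, with a difference of -1.14 ± 0.16 (SE; limma adjusted p = 0.000154). The tRNA exporter Xpot had 0.38, 0.24, 0.41, 0.35 and 0.35 at 8 mg/kg, against -0.14, -0.12, 0.14, 0.13 and 0.08 in controls, again without overlap (difference 0.33 ± 0.08, limma adjusted p = 0.0194). With the mean over all Xpot probes in place of the brightest it was 0.14 (adjusted p = 0.505), and without control replicate 1 or 2 it was 0.29 (adjusted p = 0.0561 and 0.0539).

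Subunits of the tRNA splicing endonuclease went apart. Tsen15 rose by 0.41 ± 0.08 (limma adjusted p = 0.00193), with values of -0.77, -0.55, -0.61, -0.43 and -0.48 at 8 mg/kg, against -0.96, -0.97, -0.91, -0.96 and -1.11 in controls. Tsen34, a catalytic subunit, differed by -0.37 ± 0.10 (adjusted p = 0.0211); the adjusted p was 0.0623 without 8 mg/kg replicate 3 (-0.31) and 0.0534 to 0.137 in 4 other settings (-0.37 to -0.26). Tsen54 (0.15 ± 0.07) did not pass. Pop1, a subunit shared by RNase P and RNase MRP, rose by 0.45 ± 0.11 (adjusted p = 0.0117).

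By limma, with 8.01% of all genes passing at 8 mg/kg, the 4 shorter lists around tRNA charging held no gene that passed. These were the synthetase-like and proofreading proteins (0 of 4, median -0.12), the enzymes that modify charged tRNAs in mitochondria (0 of 4, median 0.01), the cytosolic elongation factors (0 of 6, median -0.01) and the mitochondrial translation factors (0 of 9, median -0.03). At an unadjusted p under 0.05 they held 1, 0, 0 and 2 genes. The share of all genes at that threshold is not given, so these counts are not read as a result. Of 17 interferon response genes 16 were tested, the response that is known to raise Wars. At 8 mg/kg 1 rose, the chemokine Cxcl10 (1.60 ± 0.15, limma adjusted p = 1.86e-06), 2 fell, the immunoproteasome genes Psmb8 (-0.39 ± 0.10) and Psmb9 (-0.37 ± 0.09), and 13 did not pass. That was 6.25% higher and 12.5% lower, where 4.25% and 3.76% of all genes were. Psmb8 missed the threshold with only the groups compared (-0.39, adjusted p = 0.054), and Psmb9 with normexp (-0.27, 0.0843) and in the deposited table (-0.28, 0.06).

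Among the 6 synthetase genes that passed at 8 mg/kg, 4 had a promoter window, and 3 of these windows held TGATGNAA (Gars, Iars and Tars). Of the 23 tested genes with a window that did not pass, 2 held it (Aars and Yars). Cars and Pars2 had no window in the table used. These counts are a description of a few genes and carry no test.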

How the data were processed

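Spots of each 2-colour array (liver Cy5, reference Cy3) were quantified by the authors in Agilent Feature Extraction 10.7.3.1, per the file headers. The deposited scanner files hold processed intensity (background-subtracted and dye-normalised, linear scale), raw median intensity and its local background, and 0 or 1 marks per spot; these marks are the other kind of value deposited. The authors' deposited value table holds a linear ratio, column medians 0.974 to 0.987. Its scale and direction (Cy5 over Cy3) were read from correlations of 0.881 to 0.915 between its log2 values and those used here, and its centring and processing are not given in the sources used here. No dyes were swapped.

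Log2 of processed Cy5 over Cy3 was loess-normalised within each array (span 0.3, 4 iterations; control and outlier-marked spots at weight 0, then removed). Probes needed a Cy5 signal well above background on 4 or more arrays of some group (25576 of 55681 passed; 22010 to 30114 probes well above background per array, none saturated). The number of arrays limits the precision. Probes were named through RefSeq for GRCm38.p6 (26413 probes, 20018 symbols, before the filter), names only, and each gene was its brightest probe with at least 3 values per group. Probes without a symbol kept their array identifier and were counted as genes, so 12928 of the 19899 genes tested had a symbol. Tests used limma 3.58.1 (R 4.3.3) over all 23 arrays (two-sided, Benjamini-Hochberg over 19899 genes, adjusted p under 0.05; 18 residual and 2.32 prior degrees of freedom). The code was tested on simulated data. Marker scores are mean changes from the control mean.

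Members named in full passed in at least 1 comparison; those with an unadjusted p under 0.05 at 8 mg/kg and the partners for the same amino acid are given by group mean or difference; list genes are those that passed at 8 mg/kg, at most 6 a list. The members and lists were chosen with earlier results of these data known. Replicate numbers did not pair the animals: correlations of 18 same-numbered pairs were -0.233 to 0.265, with 3 above 0.1. Arrays correlated at up to 0.9879, and none was a duplicate. Alternatives covered normalisation, background, the deposited table, the probe filter and rule, slide, replicate number, samples fitted, pancreas-rich and neutrophil-rich arrays, and each array left out.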

Additional observations from a re-analysis of the deposited data

Results flagged for a closer look

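In 10 of 85 groups of 4 or 5 animals, 1 animal's log2 ratio lay far from the others of its group by Dixon's criterion, which chance meets in about 1 group in 20. For Gars, 8 mg/kg replicate 3 had -0.55, against -0.99 to -0.88 in the other animals of its group, and control replicate 5 had -1.50, against -1.25 to -1.18. For Rars, 4 mg/kg replicate 1 had -0.53, against -1.10 to -1.06, and control replicate 3 had -1.53, against -1.11 to -0.95. Yars had -2.31 in 4 mg/kg replicate 3, against -0.66 to -0.36, and was well above background on 2 of 4 arrays of that group. Mars2 had -0.49 in 8 mg/kg replicate 1, against -0.90 to -0.86. Iars2 had 1.22 in 4 mg/kg replicate 1, against 0.80 to 0.86, and Tars2 had 0.55 in 2 mg/kg replicate 1, against 0.30 to 0.33. These last 2 arrays, the first of which also gave the far Rars value, were rich in pancreatic transcripts (scores of 3.75 and 3.46), whose part was not tested. Hars2 had 0.46 in 2 mg/kg replicate 4, against 0.87 to 0.98, on the array rich in neutrophil markers (3.3), whose part was not tested. Ears2 had 1.32 in 1 mg/kg replicate 1, against 0.88 to 0.94.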

How the results depend on the processing

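At 8 mg/kg the 6 synthetase genes that passed fell to 3 with the authors' deposited table (Cars, Tars and Yars2; 8.11%, against 4.68% of all genes), 3 with no filter on dim probes (Pars2, Tars and Yars2; more genes tested; 8.11%, against 2.5%) and 2 with only the groups compared (Gars and Yars2; fewer arrays). That last count was 5.41% of the members, close to the 5.22% of all genes. In the deposited table the others were as large, with Gars at 0.50 (adjusted p = 0.11), Iars at 0.27 (0.0635) and Pars2 at -0.35 (0.0913). The count was 3 to 6 when each array was left out, 3 without control replicate 5 (8.11%, against 6.63%). The replicate block left 5 (13.5%, against 7.64%), with Iars at an adjusted p of 0.0536. In the dose slope the count was 3 with the deposited table, 3 to 9 over all alternatives and 4 to 8 with 1 array left out. At 4 mg/kg it was 1 without loess and 1 with slide as a block, against 0. Between 8 and 4 mg/kg it was 0 to 1 with 1 array left out, 1 without control replicate 1. At 1 and 2 mg/kg it stayed at 0. The share of all genes under each setting was worked out for 8 mg/kg alone. The counts for the slope, for 4 mg/kg and for 8 against 4 mg/kg therefore have no background and are not read as a result. Yars2 passed at 8 mg/kg in 10 of 10 other settings, Tars in 9, Cars, Gars and Pars2 in 7 each and Iars in 5. The cause of a lost call was not tested in any setting. All 6 genes kept their direction. Iars2 turned to -0.07, -0.02 and -0.01 without control replicate 2, control replicate 3 and 8 mg/kg replicate 3. Its range was -0.07 to 0.12. The neutrophil-rich array left out is the same as leaving out 2 mg/kg replicate 4. The groups compared gave no separate slope. The cytosolic median was 0.18 at 8 mg/kg without loess, and it was 0.04 at 2 mg/kg with normexp and with the deposited table. Elac1 was -0.74 with normexp, and Atf3 1.29 with the deposited table. Aimp2 and Xpot missed the threshold with no filter (adjusted p = 0.0524 and 0.0513), and Eef1e1 with only the groups compared (0.0798). Dim probes limit Mars2, Yars and Nars2.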
